A study of Homo sapiens with 4 samples.

Results

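Nonsense-mediated decay (NMD) is the cytoplasmic pathway that degrades messenger RNAs on which translation ends too early. The genes of its core machinery were read here in RNA-seq libraries of H1299, a line grown from a human lung carcinoma of the non-small-cell type. A total of 9 genes named UPF1, UPF2, UPF3A, UPF3B, SMG1, SMG5, SMG6, SMG8 and SMG9 was chosen by name, out of 58735 genes in the deposited table. They carry 95 annotated transcripts. Cells exposed to methylparaben, a preservative of cosmetics and foods, at 0.5 mM for 48 h gave 2 libraries, and control cells labelled EtOH, read here as ethanol, gave the other 2. The labels name no separate cultures within a group, so the p-values measure a spread between libraries that may be technical.

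Of the 9 genes, 7 had at least 1 read and 5 had enough reads to be tested. SMG5 and SMG9 rose in methylparaben, UPF3A fell, and SMG1 and SMG6 did not pass the test. UPF3A was read almost wholly, and SMG9 mainly, on intronic sequence, as described below. UPF1, UPF3B, UPF2 and SMG8 had too few reads for the test. With 2976 of 8055 tested genes called in the same comparison, or 36.9%, a count of 3 calls among 5 genes does not by itself set the NMD factors apart.

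In NMD, the RNA helicase UPF1 is recruited to a ribosome that has stopped at a premature stop codon. UPF2 and a UPF3 protein connect UPF1 to the exon junction complex, a protein mark left by splicing downstream of that stop codon. The kinase SMG1, held in a complex with SMG8 and SMG9, phosphorylates UPF1, and the phosphorylated UPF1 recruits the endonuclease SMG6 and the adaptor SMG5. Several mRNAs of these factors are themselves substrates of the pathway, and RNAs that keep an intron often carry a premature stop codon.

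Library totals ran from 2068486 to 3760982 reads, and 3 reads, taken as the detection limit, were worth 0.798 to 1.45 CPM (counts per 1000000 reads of a library). All tested levels below are CPM with TMM scaling (trimmed mean of M values). Reads had been counted only on bases unique to 1 annotated transcript, since the 70749 transcripts that have no unique base held 0 reads. Of the 5 lung alveolar, 5 blood and 2 hepatocyte markers none had a read, and of 4 epithelial markers KRT8 and KRT18 were read while KRT19 and EPCAM were at 0. The 4 mesenchymal markers summed to 623 and 526 CPM in methylparaben against 1334 and 1948 CPM in ethanol, mostly AXL, and the 3 fibroblast markers reached at most 2.75 CPM. The part of these differences in the results on NMD factors was not tested. In such bulk libraries, fewer cells with a transcript and less of it per cell cannot be told apart.

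The way reads were counted decides what was seen of each NMD factor. The 9 genes together held 7634 reads, 0.0735% of all reads, and SMG1 alone held 78.3% of them. Only 27 of the 95 transcripts had a read, and 23 had no base of their own. By transcript type, 90.0% of the reads lay on protein-coding transcripts, 9.44% on retained-intron transcripts, 0.472% on processed transcripts and 0.0393% on transcripts annotated as NMD substrates. That last type comprised 3 transcripts, of which only SMG9-206 had single-transcript bases, and it had 3 reads.

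These shares differed widely between the genes. For SMG5, SMG6 and SMG1 the protein-coding share was 100%, 99.8% and 98.8%. UPF3A lay at the other end, where retained-intron transcripts took 99.1% of 351 reads, and in SMG9 they took 76.4% of 433 reads against 22.9% for protein-coding ones. A change of the UPF3A or SMG9 sum is therefore mainly a change of reads on intronic bases annotated to retained-intron transcripts. Which RNA those reads came from was not tested.

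**Figure D1:**
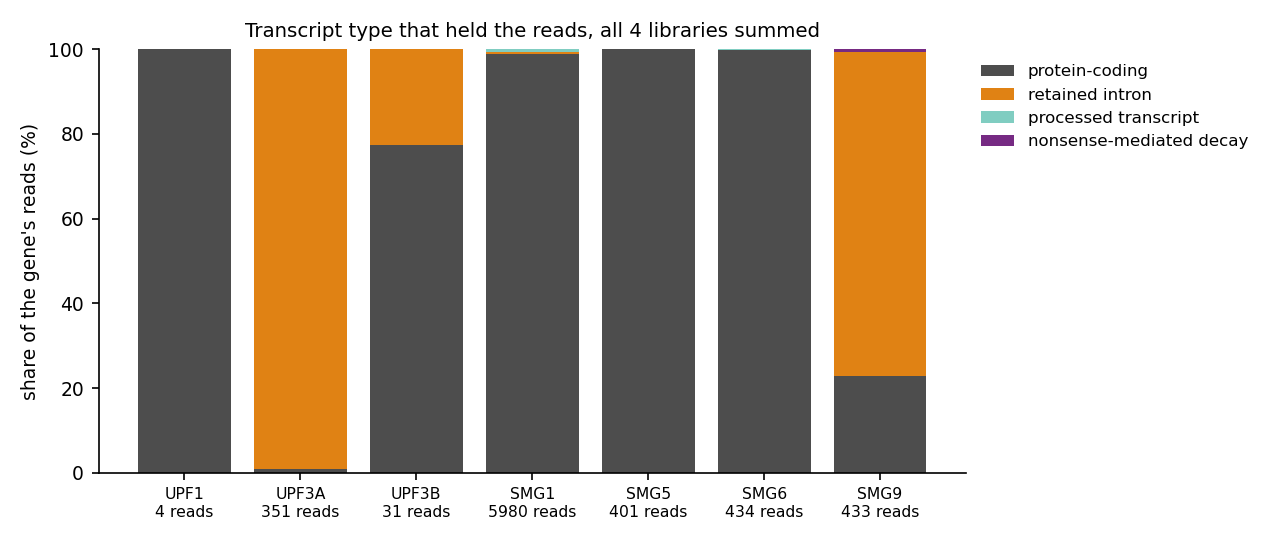
Share of each gene's reads (vertical axis, %) that lay on each annotated transcript type, over all 4 libraries, for the 7 NMD factor genes with reads (horizontal axis, with read totals). Retained-intron transcripts gave most reads of UPF3A (99.1%) and SMG9 (76.4%), and SMG1, SMG5 and SMG6 on protein-coding ones.

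A stretch from each called retained-intron transcript is shown because the UPF3A and SMG9 results rest on such reads. Both come from the GENCODE 29 transcripts on GRCh38 and are written 5′ to 3′ in the direction of transcription. In the UPF3A stretch the capitals mark the GT of the splice donor, which follows 30 exon bases, and the first stop codon in the frame of the coding transcript UPF3A-202. In the SMG9 stretch they mark the last stop codon in the frame read on from exon 9 of SMG9-201, and the AG of the acceptor, which is followed by 30 bases of exon 10.
UPF3A-212, exon 5 into intron 5, chr13:114286600-114286749, plus strand: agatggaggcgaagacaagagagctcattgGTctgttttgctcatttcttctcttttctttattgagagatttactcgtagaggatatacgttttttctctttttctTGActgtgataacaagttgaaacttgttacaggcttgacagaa
SMG9-207, intron 9 into exon 10, chr19:43734466-43734645, minus strand: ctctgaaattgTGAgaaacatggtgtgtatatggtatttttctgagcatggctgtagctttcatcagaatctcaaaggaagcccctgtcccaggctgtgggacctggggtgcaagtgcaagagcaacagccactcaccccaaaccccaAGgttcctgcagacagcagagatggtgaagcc

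In both stretches the reading frame of the coding transcript meets a stop codon inside the intron. In UPF3A-212 a TGA begins at base 78 of intron 5, which is 4859 bases long. The 330 counted bases of SMG9-207 hold 3 in-frame stop codons if intron 9 (3101 bases) is read from exon 9, the last of them 139 bases before exon 10. As annotated, UPF3A-212 and SMG9-207 begin inside an intron, so the frame in which either would be read is not known. Whether these RNAs were translated or degraded was not measured.

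**Figure D2:**
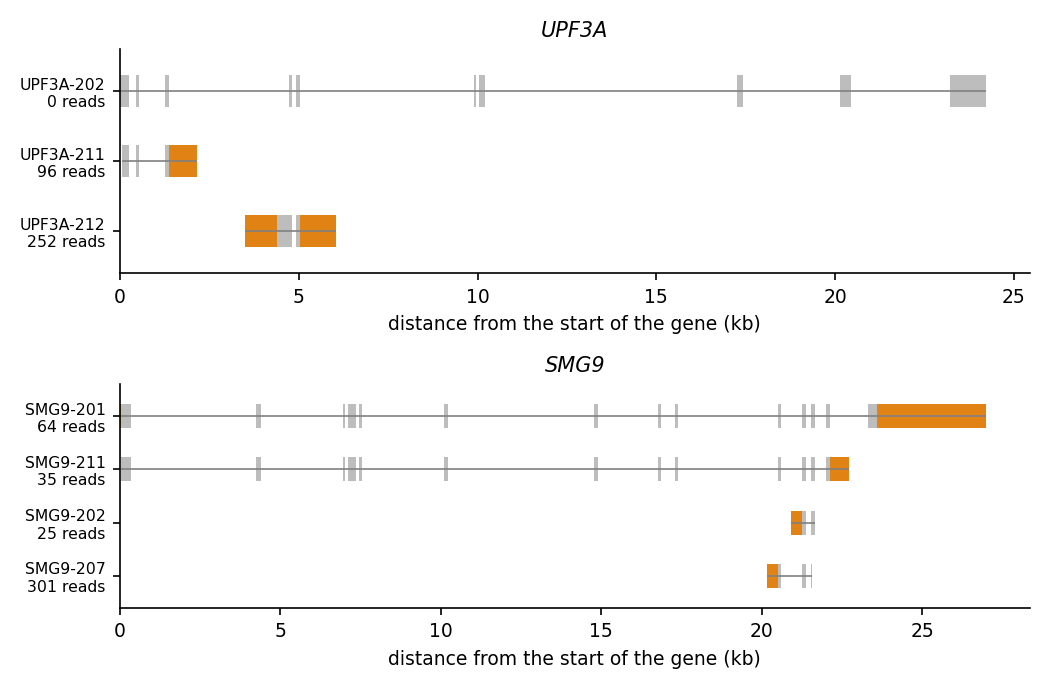
Exons (grey) and counted single-transcript bases (orange) of a reference coding transcript and of the other UPF3A and SMG9 transcripts with at least 25 reads, by distance from the start of the gene in kb. The counted bases of UPF3A-211, UPF3A-212, SMG9-202 and SMG9-207 extend exons into introns, whereas those of SMG9-201 lie almost wholly at the 3′ end.

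Among the UPF genes, UPF3A was the member that fell. UPF3A (ENSG00000169062.14, chr13:114281584-114305817, plus strand), the paralogue of UPF3B and in general the weaker activator of decay, had 83 and 40 reads in methylparaben and 109 and 119 reads in ethanol. That is 22.6 and 20.9 CPM in methylparaben against 46.4 and 51.5 CPM in ethanol. The libraries of each group lay close together and the groups were far apart. The means were 21.8 ± 1.17 CPM in methylparaben and 48.9 ± 3.64 CPM in ethanol (SD, n = 2 each). The log2 fold change was −1.16 ± 0.27 (SE), a level 2.24-fold lower in methylparaben (edgeR quasi-likelihood test, adjusted p = 0.00918, 95% interval −1.77 to −0.55). Of all genes, 18.4% were called lower. On log2(FPKM + 1) with limma the log2 fold change was −1.17 and the adjusted p = 0.0733, so the call was not kept.

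Both retained-intron transcripts of UPF3A with reads were lower by similar factors, and 1 of them passed the test. UPF3A-212, counted on 1886 bases of introns 3 and 5, had 61 and 29 reads in methylparaben and 67 and 95 reads in ethanol. Scaled to depth, both methylparaben values (16.5 and 15.3 CPM) lay below both ethanol values (29.02 and 41.9 CPM). Its log2 fold change was −1.15 ± 0.33 (edgeR quasi-likelihood test over 9167 transcripts, adjusted p = 0.0206), and without ethanol replicate 2 it was −0.86 with adjusted p = 0.17. DESeq2 gave an adjusted p of 0.0849 for it. UPF3A-211, counted on 786 bases of intron 3, had 22 and 10 reads in methylparaben and 40 and 24 reads in ethanol. Its log2 fold change was −1.29 ± 0.48, with adjusted p = 0.0562 by the same test.

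The usage test, which asks whether the transcripts of a gene moved by different amounts, called no difference between UPF3A-211 and UPF3A-212 (edgeR diffSpliceDGE, unadjusted p = 0.914 over the gene). Protein-coding UPF3A RNA was hardly measured. UPF3A-209, the only protein-coding transcript with reads, had 3 reads in all, and UPF3A-202 had none. Among the 1545 retained-intron transcripts tested in the whole table, 39.7% were called higher in methylparaben and 6.02% lower, with a median log2 fold change of 1.02. UPF3A-212 lay on the less common side of that distribution.

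UPF3B, the X-linked paralogue (ENSG00000125351.11, chrX:119805311-119852998, minus strand), had 5 and 3 reads in methylparaben and 15 and 8 reads in ethanol, below the filter. Summed by group and set against the library totals, the ratio of methylparaben to ethanol was 0.272, with an exact binomial 95% interval of 0.105 to 0.629 that covers counting error only. Without the filter the edgeR quasi-likelihood test gave a log2 fold change of −1.72 ± 0.87 and an adjusted p = 0.219. Most of its reads lay on the protein-coding UPF3B-205, with 3 and 0 reads in methylparaben against 15 and 5 reads in ethanol. The counted bases of UPF3B-205 (within chrX:119805311-119831759) lie beyond the 3′ end of UPF3B-201 (chrX:119834022-119852998). UPF3B-201 had 1 read on 4 bases of its own, so the UPF3B reads say little of that mRNA. The ratio for UPF3B-205 was 0.117, with an interval of 0.0223 to 0.395 for counting error only. Without the filter it did not pass the edgeR quasi-likelihood test (log2 fold change −2.99 ± 1.14, adjusted p = 0.0849).

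The helicase UPF1 and its partner UPF2 could not be measured. UPF1 (ENSG00000005007.12, chr19:18831938-18868236) had 1 and 0 reads in methylparaben and 2 and 1 reads in ethanol, all on UPF1-207, which has 33 bases of its own. The ratio was 0.260 with an interval of 0.00496 to 3.24, so a difference was not detectable at this depth. UPF2 (ENSG00000151461.19, chr10:11920022-12043170) had 0 reads in all 4 libraries, with 536 of its 5906 exonic bases in a single transcript. In each library a count of 0 allows up to the 3-read limit of 0.798 to 1.45 CPM on those bases. It says little of the UPF2 mRNA as a whole.

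In the SMG1 kinase complex, the level of the kinase did not pass the test and that of SMG9 rose on its intronic reads. SMG1 (ENSG00000157106.16, chr16:18804853-18926454, minus strand), which phosphorylates UPF1, had 2351 and 1092 reads in methylparaben and 1233 and 1304 reads in ethanol. That is 640 and 571 CPM in methylparaben against 524 and 564 CPM in ethanol. With TMM scaling the groups did not overlap, but the lower methylparaben library and the higher ethanol library were nearly equal. Without that scaling the groups overlapped, at 51.6 and 43.6 CPM per counted kilobase in methylparaben against 43.0 and 49.3 in ethanol. The log2 fold change was 0.15 ± 0.16 (edgeR quasi-likelihood test, adjusted p = 0.484), with a 95% interval of −0.21 to 0.51. On log2(FPKM + 1) it was −0.06 (limma, adjusted p = 0.870).

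SMG1-202, the full-length coding transcript, had 2316 and 1074 reads in methylparaben and 1215 and 1280 reads in ethanol, all on 3203 untranslated bases. Its log2 fold change was 0.13 ± 0.16 (edgeR, adjusted p = 0.543). Chromosome 16 holds near-identical copies of SMG1, so reads may be split between them and the SMG1 values are uncertain. Of 7 such pseudogenes, SMG1P2 had most reads, with 782 and 414 in methylparaben and 516 and 602 in ethanol. SMG1P4 had 87 and 36 reads in methylparaben and 95 and 90 in ethanol, and SMG1P5 had 87 and 25 in methylparaben and 47 and 42 in ethanol. The other 4 had 5 to 90 reads in all.

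Minor SMG1 transcripts held few reads. SMG1-204, a retained-intron transcript, had 0 and 0 reads in methylparaben and 6 and 6 reads in ethanol, at least 5.12-fold lower against a limit of 3 reads over the group. Without the filter its adjusted p was 0.0491 by the edgeR quasi-likelihood test. SMG1-201 had 17 and 3 reads in methylparaben and 0 and 3 reads in ethanol, and SMG1-215 had 5 and 7 reads in methylparaben and 2 and 0 reads in ethanol. The ratios were 5.20 for SMG1-201 (interval 1.54 to 27.3) and 4.68 for SMG1-215 (interval 1.04 to 43.1), for counting error only. Neither passed the same test without the filter (edgeR, adjusted p = 0.334 and 0.454). For SMG1-201 the lower methylparaben count equalled the higher ethanol count, at 3 reads.

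SMG9 (ENSG00000105771.13, chr19:43727992-43754990, minus strand), which binds SMG1 together with SMG8, had 189 and 128 reads in methylparaben and 71 and 45 reads in ethanol. That is 51.4 and 67.0 CPM in methylparaben against 30.2 and 19.5 CPM in ethanol. Every methylparaben value was above every ethanol value. The means were 59.2 ± 11.0 CPM in methylparaben and 24.8 ± 7.58 CPM in ethanol (SD, n = 2 each), a log2 fold change of 1.24 ± 0.30 or 2.37-fold (edgeR quasi-likelihood test, adjusted p = 0.0109, 95% interval 0.56 to 1.92). Of all genes, 18.5% were called higher. Without ethanol replicate 2 the log2 fold change was 0.98 with adjusted p = 0.0627, and on log2(FPKM + 1) limma gave 1.69 with adjusted p = 0.0930.

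Most of the counted reads of SMG9 lay on 1 short intronic stretch. SMG9-207, a retained-intron transcript, held 301 of the 433 reads on its 330 counted bases, with 162 and 74 reads in methylparaben and 45 and 20 reads in ethanol. Scaled to depth it stood at 43.9 and 39.1 CPM in methylparaben against 19.5 and 8.83 CPM in ethanol. Its log2 fold change was 1.55 ± 0.38 (edgeR quasi-likelihood test, adjusted p = 0.0104), and without ethanol replicate 2 it was 1.09 with adjusted p = 0.0748. Per counted kilobase, with no TMM scaling, it stood at 131 and 108 CPM in methylparaben and 57.6 and 27.8 CPM in ethanol. On that scale the coding SMG9-201 stood at 0.621 and 2.82 CPM in methylparaben and 1.73 and 2.94 CPM in ethanol.

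No rise was called on SMG9-201, the only protein-coding SMG9 transcript that was tested. SMG9-201 had 8 and 20 reads in methylparaben and 14 and 22 reads in ethanol on 3426 untranslated bases, a log2 fold change of −0.44 ± 0.71 (edgeR, adjusted p = 0.658, 95% interval −2.01 to 1.14). Leaving out 1 library moved that value between −1.82 (without methylparaben replicate 2) and 0.42 (without methylparaben replicate 1), so its direction is not settled. SMG9-211 had 14 and 6 reads in methylparaben and 12 and 3 reads in ethanol and did not pass the filter. All of its 588 counted bases are intronic to SMG9-201, and 4 of them are coding. With only protein-coding transcripts summed, the log2 fold change of SMG9 was −0.08 (edgeR, adjusted p = 0.923), and without retained-intron transcripts it was −0.03 (adjusted p = 0.973).

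A change in the balance between SMG9-201 and SMG9-207 was not called. The usage test gave adjusted p = 0.188, where 30.6% of 1172 genes, and 17.8% of their 2830 transcripts taken singly, were called. With either methylparaben library left out the usage test did call SMG9. In those fits 11 NMD factor transcripts passed the filter against 7, so the SMG9 transcripts compared may not be the same pair. SMG9-207 made up 85.7% and 57.8% of the SMG9 reads in methylparaben and 63.4% and 44.4% in ethanol, and these shares overlapped between the groups. SMG9-201 made up 4.23% and 15.6% in methylparaben and 19.7% and 48.9% in ethanol, and these did not overlap.

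Of the other intronic SMG9 reads, those of SMG9-211 were seen in both groups and those of the transcripts below in methylparaben alone. The retained-intron transcript SMG9-202 had 4 and 21 reads in methylparaben and 0 and 0 reads in ethanol. That is at least 6.51-fold higher against a limit of 3 reads over the group. Without the filter the adjusted p of SMG9-202 was 0.00129 (edgeR). SMG9-203 had 1 and 3 reads and the NMD-annotated SMG9-206 had 0 and 3 reads in methylparaben, and each had 0 in ethanol. SMG8 (ENSG00000167447.12, chr17:59209400-59215247), the third protein of the complex, had 0 reads in all 4 libraries, with 167 of 3752 exonic bases in a single transcript.

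Of the effectors that act on phosphorylated UPF1, SMG5 rose and SMG6 did not pass the test. SMG5 (ENSG00000198952.8, chr1:156249224-156282825, minus strand) is an adaptor of mRNA decay. It had 134 and 176 reads in methylparaben and 50 and 41 reads in ethanol. That is 36.5 and 92.1 CPM in methylparaben against 21.3 and 17.7 CPM in ethanol. Both methylparaben libraries were above both ethanol libraries, and methylparaben replicate 2 had 2.53 times the level of replicate 1. The means were 64.3 ± 39.3 CPM in methylparaben and 19.5 ± 2.49 CPM in ethanol (SD, n = 2 each). The log2 fold change was 1.69 ± 0.42 or 3.24-fold (edgeR quasi-likelihood test, adjusted p = 0.0112, 95% interval 0.76 to 2.63).

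The size of the SMG5 change depended on 1 library. Without methylparaben replicate 2 it was 0.93 (edgeR, adjusted p = 0.0349) and without methylparaben replicate 1 it was 2.23. On log2(FPKM + 1) limma gave 1.33 with adjusted p = 0.216. All reads lay on the coding transcript SMG5-201, over 17 stretches of 3024 bases of which 68.5% are coding sequence, so the rise was read on exons of the mRNA. At the transcript level SMG5-201 had a log2 fold change of 1.68 ± 0.42 (edgeR, adjusted p = 0.0110), and leaving out either ethanol library or methylparaben replicate 2 moved the adjusted p to between 0.0577 and 0.0684.

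SMG6 (ENSG00000070366.13, chr17:2059839-2303771, minus strand), the endonuclease that cuts the target RNA near the premature stop codon, had 117 and 126 reads in methylparaben and 116 and 75 reads in ethanol. That is 31.8 and 65.9 CPM in methylparaben against 49.3 and 32.5 CPM in ethanol. The groups overlapped fully, and methylparaben replicate 2 again stood 2.07 times above replicate 1. The log2 fold change was 0.23 ± 0.37 (edgeR quasi-likelihood test, adjusted p = 0.656, 95% interval −0.59 to 1.05). It was −0.33 without methylparaben replicate 2 and −0.02 without ethanol replicate 2. SMG6-201, read on 2644 coding bases, had 114 and 125 reads in methylparaben and 116 and 74 reads in ethanol, with a log2 fold change of 0.20 ± 0.38 (adjusted p = 0.703).

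**Figure D3:**
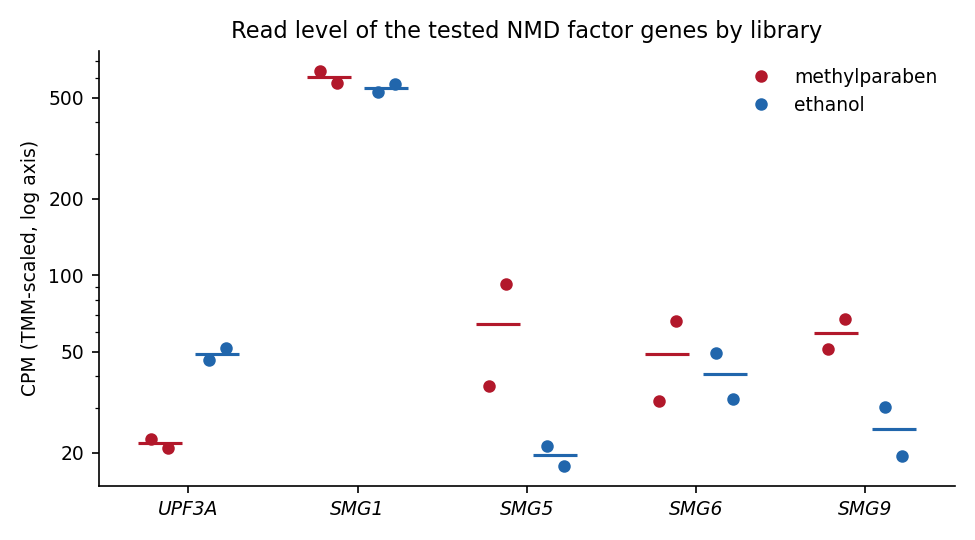
TMM-scaled CPM on a log axis for the 5 tested NMD factor genes, methylparaben in red and ethanol in blue, with 1 point per library and a line at the mean of 2 libraries. SMG5 and SMG9 lie higher in both methylparaben libraries, UPF3A lies lower in both, SMG6 overlaps, and SMG1 differs little.

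Set per length of the counted bases, SMG1 had the highest value of the members in every library. It had 51.6 and 43.6 CPM per counted kilobase, with no TMM scaling, in methylparaben and 43.0 and 49.3 in ethanol. In methylparaben SMG5 (10.3 and 24.5), SMG9 (8.996 and 11.1), SMG6 (5.03 and 9.85) and UPF3A (7.31 and 6.41) followed on the same scale, and each overlapped its neighbour in that order. UPF3B (1.88 and 2.05) and UPF1 (0.0810 and 0) had the lowest values of the genes with reads. In ethanol UPF3A (15.2 and 18.1) came directly after SMG1 and stood clear of UPF3B (8.96 and 5.19), SMG6 (7.92 and 5.56), SMG5 (6.09 and 5.42) and SMG9 (5.37 and 3.69), of which each neighbouring pair overlapped except SMG5 and SMG9. UPF1 (0.257 and 0.140) again had the lowest value. The UPF3A and SMG9 values on this scale are mostly intronic, so they do not rank the mRNAs. The SMG1, SMG5 and SMG6 reads are divided also by bases of transcripts with few or no reads. On their own bases, SMG1-202 stood at 192 and 162 in methylparaben and 160 and 183 in ethanol. SMG6-201 stood at 11.5 and 22.9 in methylparaben and 18.5 and 12.8 in ethanol. SMG5-201 stood at 11.8 and 28.1 in methylparaben and 6.98 and 6.21 in ethanol. The overlap of SMG5 and SMG6 in ethanol thus depends on the bases used. The UPF1 reads were divided by 3282 bases, of which 103 lie in its protein-coding transcripts. The low UPF1 value therefore says nothing of the UPF1 mRNA. Most UPF3B reads lay beyond the end of UPF3B-201.

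Across transcripts, 7 of the 95 were tested and 3 were called: SMG5-201 and SMG9-207 higher and UPF3A-212 lower in methylparaben. Of all 9167 transcripts tested, 39.4% were called, 20.3% higher and 19.1% lower. For protein-coding transcripts the shares were 14.7% higher and 25.4% lower of 4662. SMG5-201 thus lay on the less common side for its type, as UPF3A-212 did for its own, while SMG9-207 lay on the common side for retained introns. In the authors' deposited table, 6 of the 27 transcripts with reads had an adjusted p under 0.05, where the same held for 11.1% of all transcripts with reads. The values in the authors' deposited table were 0.000430 for SMG5-201, 0.000221 for SMG9-207, 0.000558 for SMG9-202, 0.000607 for SMG1-204, 0.0357 for UPF3A-212 and 0.0430 for UPF3B-205.

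**Figure D4:**
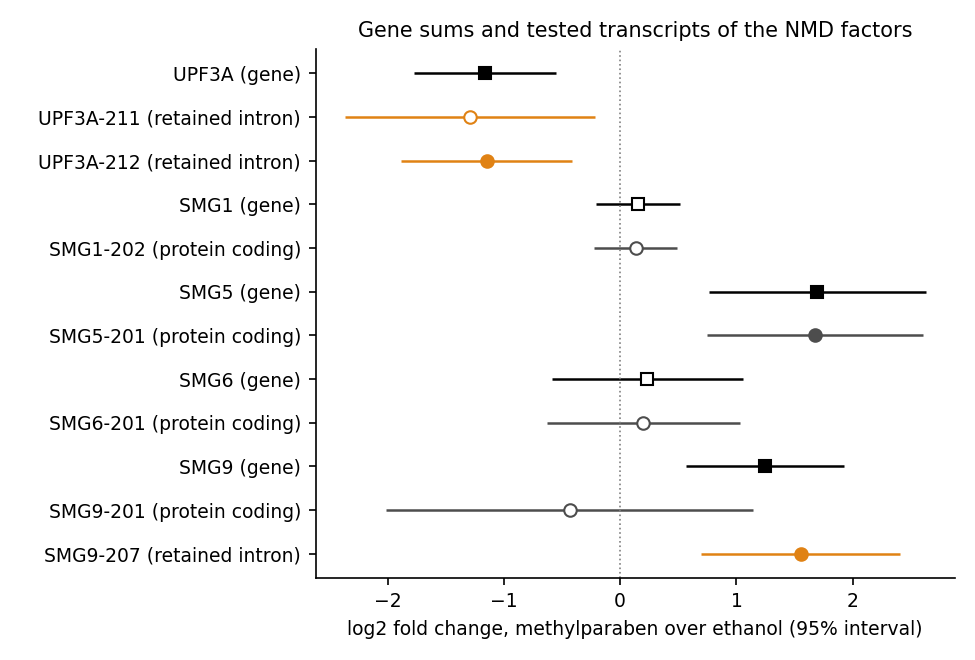
Log2 fold change of methylparaben over ethanol with its 95% interval for the gene sums (squares) and the tested transcripts (circles, orange for retained introns) of the NMD factors, filled where the adjusted p is under 0.05. The SMG9 gene sum (1.24) follows SMG9-207 (1.55) and not SMG9-201 (−0.44), and the UPF3A sum (−1.16) follows both of its retained-intron transcripts.

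The wider pathway, a list of 38 other genes, had 23 tested members, of which 7 rose, 3 fell and 13 did not pass the test. That is 43.5% called against 36.9% of all genes, with a median log2 fold change of 0.00 against 0.03 over all genes. In the exon junction complex, 2 of 5 tested members rose and 1 fell. RBM8A (Y14), a core subunit of the complex, had 47.3 and 45.5 CPM in methylparaben against 287 and 311 CPM in ethanol. It fell by 2.69 on the log2 scale (SE 0.19, edgeR quasi-likelihood test, adjusted p = 3.09e-05), and the groups were far apart. The peripheral factor RNPS1 rose by 1.27 (adjusted p = 0.00220) and the core subunit CASC3 by 2.15 (adjusted p = 0.00601). Retained-intron transcripts held 68.0% of the RNPS1 reads and 99.2% of the CASC3 reads but none of the RBM8A reads.

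Among genes of translation termination and of cap or tail binding, 2 of 7 tested members fell and 1 rose, with a median log2 fold change of −0.62. The 42.9% called compares with 36.9% of all genes. GSPT1, the release factor eRF3a that binds UPF1 at the stalled ribosome, had 37.3 and 28.3 CPM in methylparaben against 165 and 185 CPM in ethanol. It fell by 2.40 (SE 0.23, edgeR, adjusted p = 0.000115). NCBP1, the large subunit of the nuclear cap-binding complex, fell by 0.62 (SE 0.16, adjusted p = 0.0136) and is named after its value was seen. PABPC4, a cytoplasmic poly(A)-binding protein, rose by 2.91 (adjusted p = 0.000312) with 93.5% of its reads on retained introns.

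Among decay enzymes and other partners, 4 of 11 tested members rose and 7 did not pass the test, with a median log2 fold change of 0.06. The 36.4% called is close to the 36.9% of all genes called in either direction. All 4 calls were higher, where 18.5% of all genes were called higher. SEC13, a coat and nuclear pore protein, had 10.3 and 23.0 CPM in methylparaben against 3.83 and 2.60 CPM in ethanol and rose by 2.32 (adjusted p = 0.0115), and its reads were 100% on retained introns. The other 3, named after their values were seen, were the NMD factors NBAS (1.07) and DHX34 (1.52) and the decapping activator DCP1A (0.67). Fewer than 5% of their reads lay on retained introns.

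Of 43 RNAs described as NMD-regulated in human cells, 32 were tested, and 16 rose, 3 fell and 13 did not pass the test. The share called was 59.4% against 36.9% of all genes, and the median log2 fold change was 0.94 against 0.03. Several of the risers were read mainly on retained introns, a type with 39.7% called higher and a median of 1.02 in the whole table. With retained-intron transcripts left out, 12 of 19 tested RNAs rose and 2 fell, where 2518 of 7195 genes were called. The part of transcript type in the list's values was not tested. The list does not isolate NMD, since several of its genes are also targets of ATF4 or of the unfolded protein response. That holds for the largest risers among the named genes. ASNS, asparagine synthetase, had 389 and 334 CPM in methylparaben against 34.9 and 45.01 CPM in ethanol and rose by 3.18 (SE 0.21, edgeR, adjusted p = 2.74e-05). TRIB3, a pseudokinase of the stress response, had 323 and 978 CPM in methylparaben against 74.0 and 54.5 CPM in ethanol and rose by 3.33 (adjusted p = 0.000571).

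The stress transcription factor ATF3 rose by 3.34 (adjusted p = 0.000320) and the ER stress sensor ERN1 by 2.14 (adjusted p = 7.54e-05). Retained introns held 74.2% of the ATF3 reads and 64.7% of the ASNS reads, but none of the TRIB3 reads and 0.441% of the ERN1 reads. Protein-coding transcripts held 0% of the ATF3 reads. The 3 genes that fell encode SR splicing factors, whose poison exons are known NMD switches. SRSF3 had 47.1 and 33.5 CPM in methylparaben against 146 and 157 CPM in ethanol (log2 fold change −1.89, adjusted p = 0.000385). SRSF6 had 519 and 459 CPM in methylparaben against 1111 and 1228 CPM in ethanol (−1.26, adjusted p = 0.000569). SRSF4, named after its value was seen, was at −1.83 with 98.5% of its reads on retained introns, and SRSF7, likewise named afterwards, rose by 1.18. In the whole table, transcripts annotated as NMD substrates numbered 201 among those tested, and 30.3% of them were called higher and 14.9% lower, with a median log2 fold change of 0.33.

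**Figure D5:**
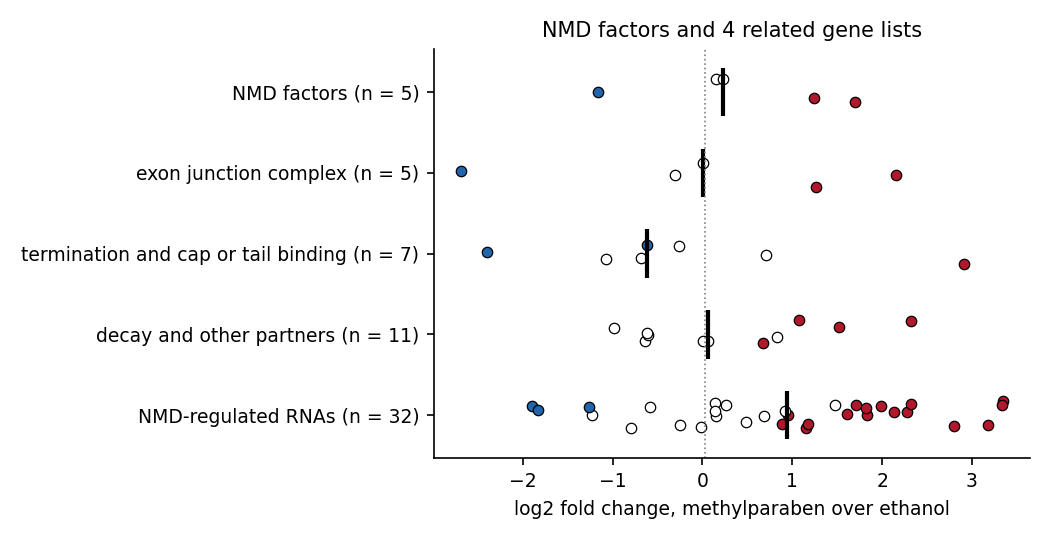
Log2 fold change of methylparaben over ethanol for each tested gene (points, red for called higher, blue for called lower, open for not called), with the median of each list as a bar and that of all genes (0.03) as a dotted line. The NMD-regulated RNAs have the median farthest to the right (0.94), and the 5 tested NMD factors lie on both sides of 0.

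The genes whose levels over the 4 libraries were most like those of SMG1, by Euclidean distance of centred log2(CPM + 1) among 5401 genes, were ERO1A (distance 0.0214), GK5 (0.0248) and PGBD4 (0.0329). ERO1A had 226 and 198 CPM in methylparaben against 182 and 196 CPM in ethanol. GK5 had 40.3 and 35.1 CPM in methylparaben against 32.7 and 35.1 CPM in ethanol, and PGBD4 had 56.0 and 50.8 CPM in methylparaben against 45.1 and 48.9 CPM in ethanol. None passed the test (edgeR, adjusted p = 0.471, 0.682 and 0.574). With 4 libraries, such nearness describes a level that differed little and no more.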

How the data were processed

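The deposited files hold raw read counts for 206601 annotated transcripts, not normalized by the authors, and FPKM values with their log2(FPKM + 1), per the file headers; the log2 columns were not used. The deposited table also gives the authors' p-values and adjusted p-values, whose test no source names. Per the labels' protocols, poly(A) RNA from Trizol extracts went into TruSeq libraries. The submitters' processing notes list GRCh38, DESeq2, limma and edgeR; which aligner and counter were used is not given in the sources used here. Strand was not used in counting, so overlapping genes are uncertain.

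Transcript counts were summed per gene, filtered with filterByExpr (minimum count 10, total 15), scaled by TMM and compared in edgeR 4.0.16 (R 4.3.3) by the two-sided quasi-likelihood F-test. P-values of 8055 genes were adjusted by Benjamini-Hochberg, and calls were made under 0.05. The same was done for 9167 transcripts, and diffSpliceDGE tested usage. SE is the log2 fold change over the square root of F. Totals ran from 2068486 to 3760982 counts; intervals on low counts and the limit of 3 reads cover counting error only. Annotation and sequences are from GENCODE 29, where every transcript matched by coordinates. Scripts were tested on simulated data. Alternatives were DESeq2 1.42.0, limma 3.58.1 (voom, and log2 FPKM with pseudocounts of 1 and 0.1), other scalings and filters, transcript types, a replicate block and leaving out each library.

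The members and lists were chosen with earlier results of these data known. Named genes were all members, their tested transcripts, up to 6 called genes with the smallest p of the pathway list and of the NMD-regulated list, and the 3 genes nearest to SMG1; exceptions are stated. Some items of the lists and sequences are not reported here.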

Additional observations from a re-analysis of the deposited data

How the results depend on the processing

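SMG5 and SMG9 higher and UPF3A lower were called under the other count scalings, filters and tools and under the replicate block. Limma on log2 FPKM called 0 of the NMD factors under pseudocount 1, pseudocount 0.1 and no filter, although 4 had an unadjusted p under 0.05 each time; in those fits the genes called numbered 287, 35 and 55 against 2976, the pathway genes 3, 1 and 2 against 10, and the NMD-regulated RNAs 3, 0 and 0 against 19 (19, 21 and 19 at an unadjusted p under 0.05). SMG1 was at −0.06 in those fits. With protein-coding transcripts only, 1867 of 4487 tested genes, 1 of 4 NMD factors (SMG5) and 10 of 12 NMD-regulated RNAs were called, and SMG9 was at −0.08. Without retained-intron transcripts 1 of 4 tested NMD factors was called and SMG9 was at −0.03. Without a filter, 5 NMD factor transcripts were called against 3. Leaving out 1 library gave 1677 to 3095 genes, 2 to 3 NMD factors, 0 to 4 NMD factor transcripts, 7 to 13 pathway genes, 16 to 19 NMD-regulated RNAs and 0 to 1 genes by usage, and the 0 transcripts came without ethanol replicate 2; the lone library left is assumed to vary like the other group. Leaving out 1 library moved SMG6 between −0.33 and 0.68, SMG6-201 between −0.40 and 0.67 and SMG9-201 between −1.82 and 0.42. SMG6 was at −0.02 without ethanol replicate 2 and −0.33 without methylparaben replicate 2, SMG6-201 at −0.07 and −0.40 in the same fits, and SMG9-201 at 0.42 without methylparaben replicate 1. The cause was not tested. Scaling by library size only moved the median of all genes by −0.11 and turned no sign of a tested NMD factor. The replicate numbers are not a stated pairing (correlation −0.154). With the replicate block SMG5 was at 1.57, SMG9 at 1.26 and UPF3A at −1.16, all called, and it changed no call of an NMD factor. The crossed block, chosen after seeing the data, called 3292 genes, 3 NMD factors, 11 pathway genes and 18 NMD-regulated RNAs.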
